A study of Mus musculus with 8 samples.

Results

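Coding promoter sites 150 to 1000 bp downstream of the transcription start site (TSS) are binding sites of ASH2L that lie inside the beginning of a gene rather than on its start. A site was counted here when its centre was 150 to 1000 bp downstream, along the gene, of the nearest TSS of a protein-coding gene, counting the TSSs of all annotated transcripts. Sites with a TSS of another gene on the opposite strand within 1 kb of the centre were not counted, so that the direction of transcription is known at each site. Of the 6444 sites in the list, 872 met this rule (13.5%), and they are called downstream sites below. They belonged to 803 protein-coding genes, which is 3.66% of the 21938 protein-coding genes. For comparison, 2700 genes (12.3%) had a site of any kind within 1 kb of a TSS. The 3168 sites within 1 kb of a coding TSS held, beside the 872 downstream sites, 1134 TSS-centred sites (under 150 bp from the TSS), 272 upstream sites (150 to 1000 bp before it) and 890 sites with an opposite-strand TSS.

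ASH2L was precipitated from iMEF cells, immortalised mouse embryo fibroblasts. The cells carry floxed Ash2l alleles and a tamoxifen-inducible Cre-ER, exon 4 of both endogenous alleles was excised, and human ASH2L fused to FKBP12F36V and HA tags was supplied from a lentivirus. The study worked with clones grown from single cells, mostly NG3, and the labels do not name the clone used here. The 8 samples were 4 ASH2L precipitates and 4 inputs, in groups of 2 replicates from cells without dTAG and from cells treated with dTAG for 1 h. dTAG directs the FKBP fusion protein to a ubiquitin ligase, and untreated and treated cells share the deletion and the transgene. The labels name an Ash2l antibody for the precipitates, and the study's methods name antibodies to HA. The values analysed here were the positions of the sites, 1 list for all samples, with no signal, depth or column per sample. No value below has a replicate error, the effect of dTAG could not be compared, and the intervals given describe counting error in this list, with sites treated as independent although 63 genes had 2 or more of them.

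ASH2L is a subunit of the WRAD module (WDR5, RBBP5, ASH2L and DPY30), which the KMT2 methyltransferases need to methylate lysine 4 of histone H3. Trimethylation of this lysine (H3K4me3) marks active promoters, many of which lie in CpG islands, stretches of DNA rich in G, C and unmethylated CpG. CXXC1 (CFP1) and the KMT2A and KMT2B proteins bind unmethylated CpG and can bring the complexes to islands. Promoter H3K4me3 is commonly strongest on the nucleosomes just downstream of the TSS, where exon 1 ends at its 5′ splice site and intron 1 begins. The position of the downstream sites was therefore described relative to these 3 landmarks, namely the TSS, the 5′ splice site of exon 1 and the CpG island.

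For 7 of the sites that spanned the 5′ splice site of exon 1 and were centred nearest to it, the DNA around that splice site is shown. Each run gives the last 9 bases of exon 1 and the first 51 bases of intron 1 on the strand of the gene (GRCm38.p6), with the first pair of intron bases in capitals. Fbxw4 and Dcaf1 encode substrate receptors of ubiquitin ligases, Ythdf3 a reader of N6-methyladenosine in RNA, Cand1 a cullin exchange factor, Zfpm2 a cofactor of GATA factors, Btaf1 an ATPase that removes TBP from DNA and Eea1 a tether of early endosomes.
Fbxw4, chr19:45659725-45659784, minus strand: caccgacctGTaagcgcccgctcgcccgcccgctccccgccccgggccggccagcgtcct
Dcaf1, chr9:106822083-106822142, plus strand: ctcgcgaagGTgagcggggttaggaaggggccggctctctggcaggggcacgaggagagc
Ythdf3, chr3:16183512-16183571, plus strand: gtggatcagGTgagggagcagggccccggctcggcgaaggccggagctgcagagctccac
Cand1, chr10:119239101-119239160, minus strand: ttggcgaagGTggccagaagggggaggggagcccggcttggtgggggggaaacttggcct
Zfpm2, chr15:40655575-40655634, plus strand: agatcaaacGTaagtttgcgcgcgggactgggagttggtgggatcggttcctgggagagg
Btaf1, chr19:36926393-36926452, plus strand: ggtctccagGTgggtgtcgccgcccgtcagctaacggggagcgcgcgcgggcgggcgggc
Eea1, chr10:95940964-95941023, plus strand: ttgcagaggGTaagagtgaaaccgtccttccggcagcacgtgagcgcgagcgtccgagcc

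Exon 1 of these 7 transcripts was 152 bp (Cand1) to 537 bp (Fbxw4) long, and the site centres were 153 to 536 bp from the TSS, so that each centre fell within 3 bp of the splice site. The GC content of the 7 runs was 58.3% (Zfpm2) to 81.7% (Fbxw4), and they held 2 (Cand1) to 10 CpGs (Fbxw4 and Btaf1). The transcripts at Zfpm2 and Eea1 are annotated as a retained-intron transcript and a target of nonsense-mediated decay. The same stretch is shown for wide sites at 3 genes of the lists described below, as examples from those lists. It held 0 CpGs at Col5a2 (a chain of fibrillar collagen V), 4 at Hnrnpa2b1 (an RNA-binding splicing regulator) and 7 at Kdm6a (a histone H3 lysine 27 demethylase within KMT2C and KMT2D complexes).
Col5a2, chr1:45502770-45502829, minus strand: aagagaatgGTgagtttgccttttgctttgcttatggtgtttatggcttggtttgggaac
Hnrnpa2b1, chr6:51469620-51469679, minus strand: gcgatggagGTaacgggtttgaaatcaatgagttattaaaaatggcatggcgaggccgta
Kdm6a, chrX:18163164-18163223, plus strand: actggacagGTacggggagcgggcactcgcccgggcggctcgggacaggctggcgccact

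Downstream sites thinned out with distance from the TSS. Their centres had a median offset of 355.5 bp (95% interval of the median 330 to 376 bp), with quartiles of 223 and 608.5 bp and a range of 151 to 996 bp, all of it bounded by the rule. The 872 downstream sites stood against 272 upstream sites between the same distances on the other side of the TSS. Both counts leave out sites with an opposite-strand TSS within 1 kb of the centre, and the part of this filter in the difference was not tested. The median width of the downstream sites was 332.5 bp (314 to 351 bp), above the 294 bp (283 to 307 bp) of TSS-centred sites and the 276.5 bp (263 to 296 bp) of upstream sites, and the interval of the downstream sites overlapped neither of the others. The shortest width in the list, 200 bp, was found in 9.52% of downstream and 8.38% of TSS-centred sites, while 37 downstream sites (4.24%) and 26 TSS-centred sites (2.29%) were wider than 1 kb. Just inside the lower bound were sites at Nbeal1, Lta4h and Smarcc1, each centred 151 bp from the TSS, and just outside it were sites at Stk38l (148 bp), Nop56 (149 bp) and Tardbp (149 bp). At the upper bound, Zfhx4 (990 bp), Pax9 (996 bp) and Usp3 (996 bp) were inside, and Bnc2 (1004 bp), Filip1l (1005 bp) and Parp3 (1005 bp) were outside.

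**Figure D1:**
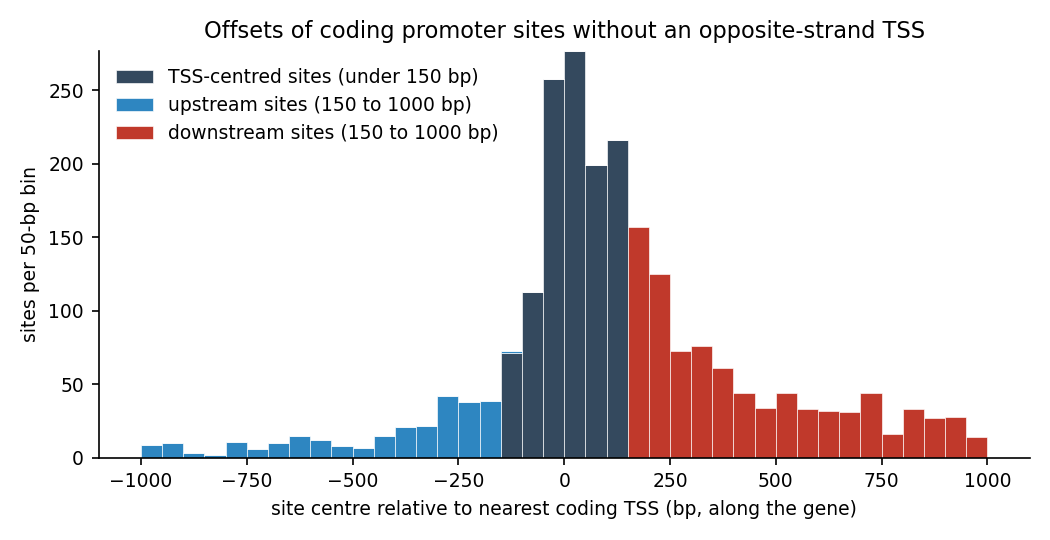
Number of sites per 50-bp bin against the offset of the site centre from the nearest coding TSS in bp, along the gene, for sites without an opposite-strand TSS within 1 kb. Colours mark the 1134 TSS-centred, 272 upstream and 872 downstream sites. Among the sites left by this filter, the downstream side holds more than the upstream side at matched distances.

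Most downstream sites reached into the gene without touching its start. The upstream edge had a median offset of 162 bp (130 to 192 bp) from the TSS and the downstream edge 579.5 bp (551 to 599 bp). The TSS itself was covered by 162 downstream sites (18.6%, Wilson 95% interval 16.1 to 21.3%), against 91.0% of TSS-centred sites, and 710 downstream sites (81.4%) lay wholly beyond it. Cover of the TSS has to fall with the offset, since a site of a given width reaches back less far, and the values are a description. When the downstream sites were divided into 4 groups of 218 by offset, 40.4% of those 151 to 223 bp from the TSS covered it, then 24.3%, 6.88% and 2.75% of those 610 to 996 bp away.

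By the nearest of all annotated TSSs, the centres of the downstream sites lay mostly in intron 1. Of the 872 centres, 564 were in intron 1 (64.7%, 61.4 to 67.8%), 267 in exon 1 (30.6%, 27.7 to 33.8%), 18 in a later intron, 16 in a later exon and 7 beyond the end of a short transcript. This depends on the TSS, since at the 90 sites of genes with a single annotated TSS 54.4% (44.2 to 64.3%) of centres were in exon 1. Among TSS-centred sites 49.4% were centred in exon 1 and 11.6% in intron 1. This difference is largely set by the rule, since a centre farther from the TSS has more often left exon 1. A position 355 bp downstream of the 5′-most TSS was in exon 1 for 27.4% of all 21938 protein-coding genes and in intron 1 for 67.6%. The shares of the downstream sites were thus close to those of the same position over all genes, and nothing particular to the sites was read from them. The landmark differs, since a site is placed by the nearest of all TSSs and a gene by its 5′-most. With sites placed by the 5′-most TSS too, 34.6% (31.8 to 37.5%) of centres were in exon 1, above the 27.4% of genes. The median offset of that set is not given here. By the nearest TSS, the shares were close by distance as well. Exon 1 held 50.5% of the centres in the nearest group of 218 and 13.8% in the farthest, beside 55.6% and 9.77% of all genes at the median offsets of those groups, 185 and 770 bp.

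A centre at least 150 bp from the TSS can lie in exon 1 only where exon 1 is longer than its offset, so the lengths of exon 1 by place are a description. For the 230 of them with a spliced transcript the median length of exon 1 was 495 bp (434 to 567 bp), against 141 bp (127 to 152 bp) for the 564 sites centred in intron 1. Over all 833 downstream sites with a spliced transcript the median was 194 bp (182 to 207 bp), the same as the 194 bp over all spliced protein-coding genes, while it was 170.5 bp (156 to 181 bp) at TSS-centred sites. The 5 longest exons 1 that held a centre were those of Rbm15b (6511 bp, an unspliced gene for an RNA-binding protein of the methyltransferase that writes N6-methyladenosine), Maf (6360 bp, a basic leucine zipper factor), Lpar6 (5400 bp, a lysophosphatidic acid receptor), Nbeal1 (5087 bp) and Irs1 (4640 bp, the insulin receptor substrate). The first 4 of these transcripts have a single exon and no 5′ splice site. At Irs1 the site was centred 425 bp from the TSS and 4214 bp before the splice site.

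The 5′ splice site of exon 1 was spanned by 376 of the 833 downstream sites with a spliced transcript (45.1%, 41.8 to 48.5%). TSS-centred sites spanned it in 553 of 1104 cases (50.1%), a difference of -4.95 percentage points (Newcombe 95% interval -9.41 to -0.459). The downstream share was 51.4% with transcripts tagged basic, 51.6% with the 5′-most TSS and 52.6% with RefSeq transcripts, so no direction was read from this difference. Upstream sites spanned it in 10 of 259 cases. The centre lay within 100 bp of the splice site in 211 downstream sites (25.3%) and in 34.0% of TSS-centred sites, a difference of -8.64 points (-12.7 to -4.53). It was not recomputed with other TSS sets, so no direction was read from it either. In 603 of the 833 (72.4%) the centre was past the splice site. Over all 833 the median position of the centre was 143 bp past it (124 to 163 bp, quartiles -22 and 338 bp), and over the 564 centred in intron 1 it was 219 bp (195 to 238 bp). The median over all sites depended on the TSS set, with 87 bp for RefSeq transcripts, 98 bp for the 5′-most TSS and 22 bp (with an interval that includes 0) for genes with a single annotated TSS, and it was 83 bp with a lower bound of 100 bp. The centres of TSS-centred sites were a median of 163 bp before the splice site. The splice sites themselves were ordinary, since GT opened intron 1 in 820 of 833 (98.4%). Of the 9 bases CAGGTAAGT, the consensus of a 5′ splice site, a mean of 6.35 ± 0.890 (SD, n = 376) matched at spanned and 6.23 ± 1.08 (SD, n = 457) at other splice sites of downstream sites, and 6.16 ± 1.00 at those of TSS-centred sites.

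**Figure D2:**
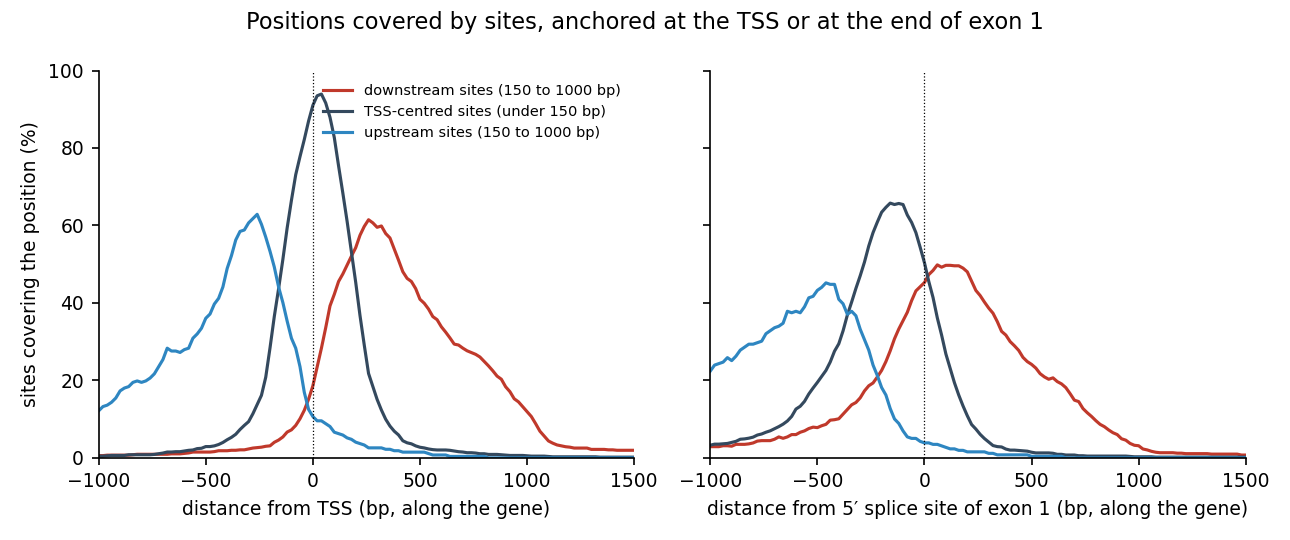
Percentage of sites that cover each position in bp along the gene, anchored at the TSS (left) or at the 5′ splice site of exon 1 (right), for downstream (red), TSS-centred (dark) and upstream (blue) sites. Downstream sites cover the position 260 bp after the TSS most often (61.5%), and anchored at the splice site their highest cover is lower, 49.8% at 60 bp into the intron.

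Distances to the TSS and to the splice site were compared across lengths of exon 1. The 833 sites were divided into 4 groups by the length of exon 1. From the group of 3 to 100 bp to that of 363 to 4640 bp, the median offset from the TSS was 331, 317, 365 and 419.5 bp, with intervals of 299 to 376, 274 to 356, 318 to 413 and 359 to 473 bp. The second and the last of these intervals did not overlap, so that sites of the longest exons 1 were centred farther from the TSS than those of the second group. The median distance of the centre from the splice site went from 273 bp past it (236 to 325 bp) through 170 and 86 bp past it to -190 bp (-245 to -145 bp), which is before it. The second distance is the offset less the length of exon 1, so it had to fall if the offset did not follow the exon. The splice site was spanned in 31.1%, 50.5%, 60.0% and 38.8% of the 4 groups. Without the lower bound of the rule, and still within 1 kb of the TSS, over downstream, TSS-centred and upstream sites together, the median offset in the same groups was 91.5, 66, 76.5 and 123 bp, with intervals of 40 to 94 bp in the second and 99 to 152 bp in the last. The downstream share of those sites was 36.0%, 35.4% and 36.5% in the 3 groups with shorter exons and 45.5% (40.9 to 50.1%) in the longest.

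CpG islands were taken directly from the genome sequence. A stretch was called an island where it spanned 200 bp or more, held over 50% GC and had more than 0.6 of the CpGs that its C and G content would give by independent draws (the observed to expected ratio). Such an island was overlapped by 776 of the 872 downstream sites (89.0%, 86.7 to 90.9%), by 95% of TSS-centred sites and by 71% of upstream sites. The differences were -5.98 points (-8.50 to -3.60) and 18 points (12.5 to 24.0). The downstream share was 93.7% with transcripts tagged basic, 94.8% with RefSeq transcripts, 96.2% with the 5′-most TSS and 100% in genes with a single annotated TSS, so no direction was read from the difference to TSS-centred sites. The TSS of the downstream sites lay in an island in 800 cases (91.7%), close to the 93.2% of TSS-centred sites, with a difference of -1.47 points (-3.88 to 0.841). In 665 sites (76.3%, 73.3 to 79.0%) the centre was in the same island as the TSS. At 355 bp from the 5′-most TSS, 53.5% of all protein-coding genes and 83.7% of the 12608 genes whose TSS is in an island were still in an island, against 82.8% of the downstream centres.

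The centres sat in the downstream part of their island. Where the centre was in an island (722 sites), it was past the island's middle in 565 (78.3%, 75.1 to 81.1%), at a median of 64.5% of the island's length along the gene, while the centres of TSS-centred sites were at 45.0%. The downstream edge of the island was a median of 404 bp ahead (381 to 425 bp) and the upstream edge 781 bp behind. The site ran past the downstream edge in 133 of the 722 (18.4%) and past the upstream edge in 37 (5.12%). Part of this follows from the rule, since the centres lie downstream of a TSS. The mirrored position, equally far before the TSS, was in an island for 567 of the 872 sites (65%), and 201 sites had an island at the centre and not at the mirrored position against 46 with the reverse.

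The reach of the island into the gene was compared between the classes. From the TSS to the downstream edge of its island the median distance was 736 bp (712 to 761 bp) at the 800 downstream sites with their TSS in an island, 563 bp (544 to 588 bp) at TSS-centred sites, 667 bp (594 to 722 bp) at upstream sites and 600 bp (594 to 606 bp) over the 12608 protein-coding genes with an island at the TSS. The intervals of downstream and upstream sites overlapped, so a longer reach was not read as particular to downstream sites. The interval of upstream sites held the 600 bp of all such genes, so no longer reach was read for them. The rule did not use the distance to the edge, which is however measured from the same TSS as the offset. How much of the longer reach, and of the shares below, follows from the rule was not tested. When downstream, TSS-centred and upstream sites were pooled and divided at the same values of this distance, the share that was downstream was 25.5% (22.6 to 28.7%) where the edge was up to 549 bp away, 40.2% (36.0 to 44.6%) at 550 to 736 bp, 52.2% (47.2 to 57.2%) at 737 to 936 bp and 50.8% (45.8 to 55.7%) beyond that. Their median offsets were 34, 106.5, 164 and 162.5 bp. Within the downstream sites, the median offset in the 4 groups was 342.5, 274, 362 and 446 bp. In the group with the nearest edge, 103 of 200 centres (51.5%) were still inside the island, and in the next groups 86.6%, 94.5% and 100% were. This share had to rise if the offset did not follow the edge.

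**Figure D3:**
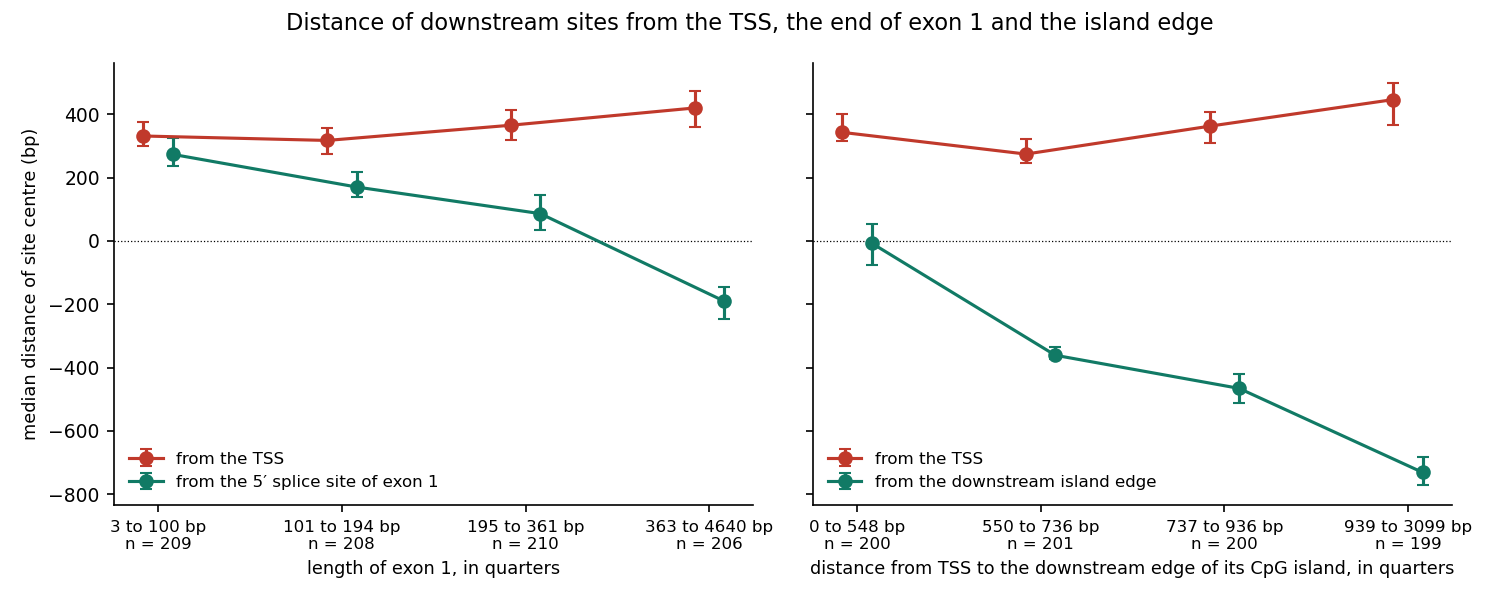
Median distance in bp of downstream site centres from the TSS (red) and from a second landmark (green), for sites in 4 groups by length of exon 1 (left, splice site) or by distance from the TSS to the downstream edge of its CpG island (right, island edge). Negative values lie before the landmark and bars are 95% intervals of the median. The red medians are between 274 and 446 bp, within the bounds of the rule. The green medians reach -190 bp on the left and, on the right, 731 bp before the edge. Each green distance is the offset less the length or distance that forms the groups, so the contrast is a description.

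The DNA under the downstream sites was rich in G, C and CpG. In 200-bp windows at the site centres the median GC content was 68.0% (66.5 to 69.5%) and the median observed to expected CpG ratio 0.843 (0.816 to 0.866). At 355 bp from the 5′-most TSS of all protein-coding genes the medians were 56.0% and 0.509. The TSS lay in an island in 12608 of those 21938 genes, against 91.7% of the downstream sites. Medians for the genes with an island alone are not given here. TSS-centred windows had 69.5% GC and a ratio of 0.922, and upstream windows 53.5% and 0.723. The mirrored position before the same TSSs had 53.5% GC, and GC content was higher at the centre than at the mirrored position in 636 of the 872 sites (72.9%, 69.9 to 75.8%). GC content was higher after than before the TSS over all protein-coding genes as well, with means of 55.4% in the bin 375 bp past it and 47.4% in that 375 bp before it, beside 64.9% and 55.1% around the TSSs of downstream sites. The asymmetry was thus not particular to the sites. GC content fell along the offset, with medians of 73.0%, 72.5%, 67.25% and 51.5% in the 4 groups of 218 sites, and the share of sites that overlapped an island was 95.9%, 96.3%, 92.7% and 71.1%. The lowest share was in the farthest group, 610 to 996 bp from the TSS. At 770 bp, the median offset of that group, 27% of all protein-coding genes and 39.6% of those with the TSS in an island were in an island, which is a count of single positions and not of sites with a width.

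GC skew, the excess of G over C on the coding strand divided by their sum, is a feature of many CpG island promoters just past the TSS. It was positive at 548 of the 872 downstream centres (62.8%, 59.6 to 66.0%) and at 410 of their mirrored positions (47.0%, 43.7 to 50.3%). The median skew was 0.053 (0.040 to 0.063) at the centres, close to the 0.051 of all protein-coding genes at 355 bp. It was lower in sites centred in exon 1 (0.018, 0.000 to 0.038) than in those centred in intron 1 (0.067, 0.054 to 0.086).

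**Figure D4:**
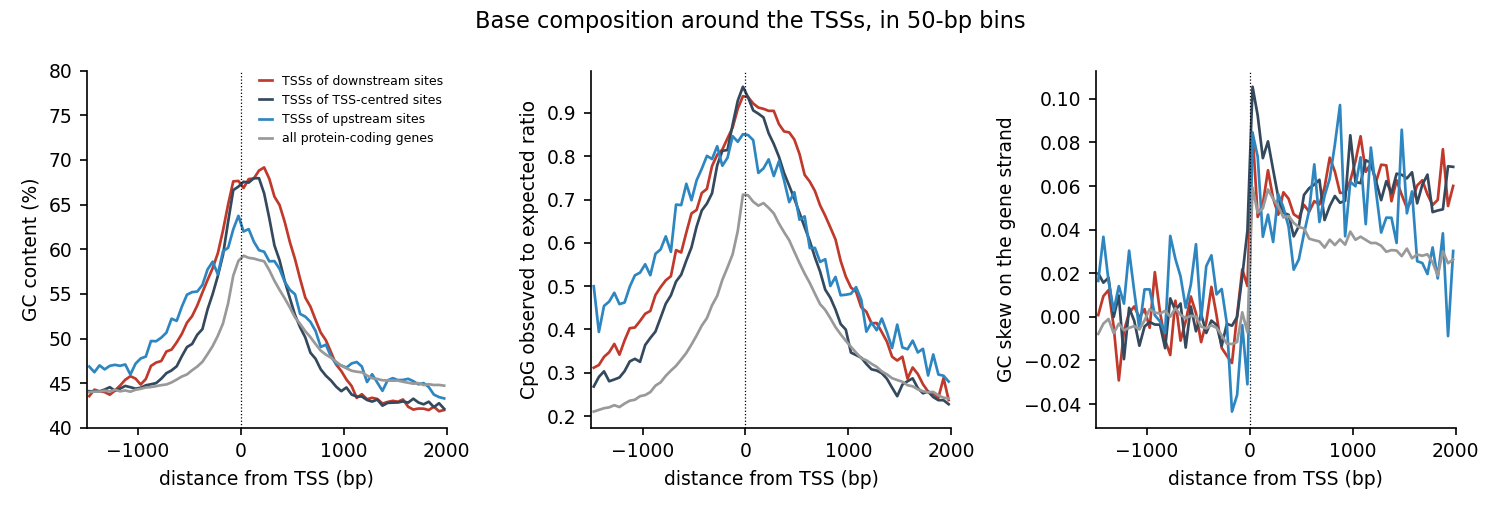
GC content in percent, observed to expected CpG ratio and GC skew on the gene strand in 50-bp bins against the distance from the TSS in bp, for the TSSs of downstream, TSS-centred and upstream sites and for the 5′-most TSSs of all 21938 protein-coding genes. Around the TSSs of downstream sites GC content is highest 225 bp past the TSS (69.2%) and is still 58.9% at 525 bp, where TSS-centred sites have 52.6%.

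Among the 10 widest downstream sites, those at Hlx, Runx1t1 and Hoxa9 had the 200 bases around their centre wholly in intron 1. These bases are shown on the strand of the gene (GRCm38.p6) with each CpG in capitals, as examples of wide sites that reach into intron 1. Hlx encodes a homeobox factor, Runx1t1 a transcriptional corepressor and Hoxa9 a HOX factor of the body axis. The windows held 7, 8 and 14 CpGs, with observed to expected ratios of 0.501, 0.510 and 0.663 and GC contents of 54%, 56% and 65%. These ratios are the lowest of the 10 widest sites, and the 6 others described below had ratios of 0.903 (Bhlhe22) to 1.14 (Arid2).
Hlx, chr1:184730681-184730880, minus strand: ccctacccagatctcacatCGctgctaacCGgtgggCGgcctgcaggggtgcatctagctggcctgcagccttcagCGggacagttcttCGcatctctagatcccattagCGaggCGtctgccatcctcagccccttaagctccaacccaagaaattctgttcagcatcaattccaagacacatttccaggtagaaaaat
Runx1t1, chr4:13744230-13744429, plus strand: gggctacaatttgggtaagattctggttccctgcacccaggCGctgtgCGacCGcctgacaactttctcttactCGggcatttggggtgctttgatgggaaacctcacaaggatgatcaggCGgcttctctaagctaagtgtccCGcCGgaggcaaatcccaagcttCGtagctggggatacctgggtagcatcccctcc
Hoxa9, chr6:52229792-52229991, minus strand: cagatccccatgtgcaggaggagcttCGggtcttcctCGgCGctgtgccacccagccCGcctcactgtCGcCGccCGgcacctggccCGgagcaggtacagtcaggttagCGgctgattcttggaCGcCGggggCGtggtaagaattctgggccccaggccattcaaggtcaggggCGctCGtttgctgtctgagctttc

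Short sequences that promoter factors recognise were searched in the windows at the site centres. The ETS sequence CCGGAAGT, searched on both strands, was in 6 of 872 windows (0.688%, 0.316 to 1.49%), in 96 of 1134 TSS-centred windows (8.47%, 6.98 to 10.2%) and in 42 windows (4.82%) around the TSSs of the downstream sites themselves. Over all protein-coding genes it was in 0.734% of windows 355 bp past the TSS and in 4.34% of those at the TSS. The YY1 sequence AAGATGGC was in 1.72% of downstream centres, 5.03% of TSS-centred windows and 6.88% of windows at the TSSs of downstream sites, beside 1.05% and 2.78% over all genes at 355 bp and at the TSS. NRF1 (CGCATGCG) and CRE (TGACGTCA) were each in 1 of the 872 windows (0.115%), against 0.328% and 0.292% over all genes at 355 bp. NFY (CCAATNNG) was in 2.64%, the E-box CACGTG in 3.10% and AP-1 (TGANTCA) in 2.75%, beside 4.02%, 3.15% and 3.41% over all genes at 355 bp. In TSS-centred windows these 3 were found in 2.73%, 3.62% and 2.73%, close to the downstream windows. AP-1 was in 7.72% of upstream windows (5.10 to 11.5%). For ETS and the E-box the downstream share was close to that of all genes at 355 bp, and nothing particular to the sites was read from it. The splice site letters GGTAAG on the gene strand were in 5.85% of downstream windows and 6.76% over all genes. None of these letter strings contains another, and a string that is absent says only that these letters are not in the window.

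Some downstream sites were accompanied by another site at the same TSS. In 217 of the 872 (24.9%, 22.1 to 27.9%) another site was centred nearer to the TSS or up to 1 kb upstream of it, at a median gap of 204 bp (172 to 234 bp). With the 5′-most TSS of each gene in place of the nearest the share was 16.1% (14.0 to 18.5%). The share was 10.1% in the group nearest to the TSS, then 15.6%, 27.5% and 46.3% in the farthest group. There is more room for another site before a far centre than before a near one, and the part of this in the rise was not tested. By gene, 126 of the 803 also had a TSS-centred site and 60 an upstream site. The downstream sites were single at 740 genes, and 60 genes had 2. Nr2f2, an orphan nuclear receptor, had 4 and Foxp1, a forkhead repressor, had 5.

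The 5 sites of Foxp1 used 4 of its 22 annotated TSSs. At 2 of these TSSs, 1086 and 1004 bp wide sites spanned the splice site, centred 233 and 44 bp into intron 1. A pair of narrower sites, 247 and 211 bp wide, lay 931 and 370 bp after a further TSS, and the latter was centred 26 bp before the end of an exon 1 of 397 bp. The fifth was 218 bp wide, 454 bp past the splice site. The 4 sites of Nr2f2 were 3005, 469, 273 and 200 bp wide, and all were centred in exon 1 of their transcripts. Hoxd11 had 2 sites of 2847 and 1483 bp at separate TSSs, both centred in exon 1 and both over the splice site. Runx1t1 and Hoxa9 each had the wide site shown above and a narrow one of 319 and 210 bp at another TSS, which also spanned the splice site.

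Of the 10 widest downstream sites 9 are described here. They belonged to Hlx (3340 bp), Runx1t1 (3130 bp), Nr2f2 (3005 bp), Tsc22d2 (2933 bp), Hoxd11 (2847 bp), Hoxa9 (2728 bp), Arid2 (2651 bp, a subunit of the PBAF remodelling complex), Rictor (2626 bp, a subunit of mTOR complex 2) and Bhlhe22 (2484 bp, a basic helix-loop-helix factor). All 9 covered the TSS and overlapped an island. Of the 7 with a spliced transcript, all spanned the splice site. A site of this width covers several promoter landmarks at once, so that its centre places it less closely than that of a narrow site.

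Gene lists were described by how many of their genes had a downstream site, beside the 3.66% of all protein-coding genes, and by the share of their promoter sites that was downstream, beside 27.5% of all sites within 1 kb of a coding TSS. The share of list genes with any promoter site, 12.3% over all protein-coding genes, is given as well.

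**Figure D5:**
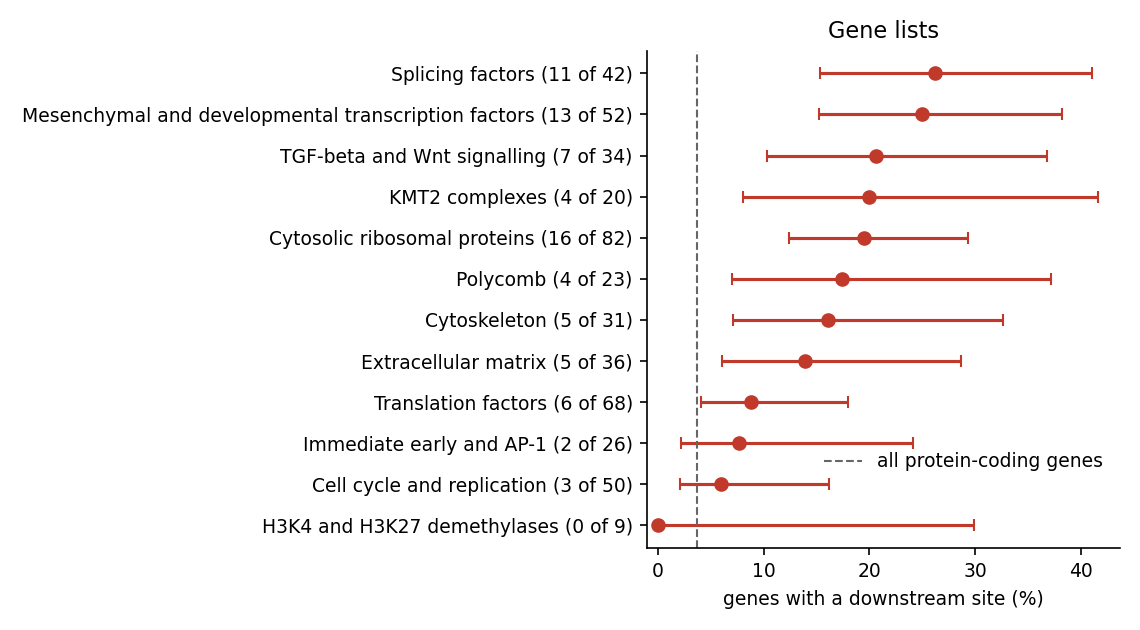
Percentage of genes of each list with a downstream site, with Wilson 95% intervals and the number of genes in brackets. The dashed line is the 3.66% of all protein-coding genes, and the highest points are splicing factors (26.2%) and mesenchymal and developmental transcription factors (25%).

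Among the KMT2 complexes, 4 of 20 genes had a downstream site (20%, 8.07 to 41.6%) and 12 had any promoter site (60%). Downstream sites were 4 of their 13 promoter sites (30.8%). Wdr5, the WRAD subunit that binds the KMT2 proteins, had a 243 bp site centred 73 bp into intron 1. Paxip1, a subunit of KMT2C and KMT2D complexes, had a 470 bp site 19 bp before the splice site, and Kmt2c, a catalytic subunit, a 424 bp site 473 bp past it. Kdm6a had a 907 bp site at chrX:18162778-18163684, 59 bp past the splice site. All 4 overlapped an island. None of the 9 further H3K4 and H3K27 demethylase genes had a downstream site (0%, with a Wilson interval up to 29.9%), although 4 (44.4%) had a site elsewhere in the promoter. Of the 23 Polycomb genes 7 had any promoter site (30.4%) and 4 a downstream site (17.4%), and 4 of their 8 promoter sites were downstream, with Suz12 and Rnf2, core subunits of the PRC2 and PRC1 complexes, at 714 and 358 bp from the TSS.

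The mesenchymal and developmental transcription factors had 20 downstream sites at 13 of 52 genes (25%, 15.2 to 38.2%), while 48.1% had any promoter site. Of their 55 promoter sites 36.4% (24.9 to 49.6%) were downstream, and this interval holds the 27.5% of all promoter sites. Beside those of Foxp1, wide sites were found at Prrx1, a homeobox factor of limb mesenchyme (795 bp, 201 bp from the TSS and in an exon 1 of 1274 bp), and Ebf1, a helix-loop-helix factor (740 bp, centred 90 bp into intron 1). The site at Twist1, a basic helix-loop-helix factor of mesenchyme, was 497 bp wide and centred in exon 1, 772 bp from the TSS. Runx2, the factor of bone formation, had 2 narrow sites in intron 1, 655 and 951 bp from the TSS. An island was overlapped by 14 of the 20 sites, and 10 had another site nearer to the TSS or upstream of it. In TGF-beta and Wnt signalling 7 of 34 genes had a downstream site (20.6%, 10.3 to 36.8%) and 44.1% any promoter site, and 9 of 25 promoter sites (36%) were downstream. Fzd7, a Wnt receptor in a single exon, had a 719 bp site, and Smad7, an inhibitor of TGF-beta signalling, a 610 bp site. Tcf7l2, a nuclear effector of Wnt signalling, and Smad4, the common SMAD, had 2 each. In the immediate early list, 4 of 26 genes had any promoter site (15.4%), and 2 of the 4 sites were downstream, at Ier5 and Fosl1 (7.69% of genes).

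Downstream sites at matrix and cytoskeletal genes had median offsets of 602 and 633 bp, each over 5 sites, beside 355.5 bp for all downstream sites. Other lists were above 355.5 bp as well, with 573 bp in TGF-beta and Wnt signalling and 519 bp in immediate early genes. Cell cycle genes had 514 bp, mesenchymal factors 477.5 bp, Polycomb 402 bp and KMT2 complexes 389.5 bp. Splicing factors (330.5 bp), translation factors (316 bp) and ribosomal proteins (230.5 bp) were below it. The 5 sites at extracellular matrix genes (5 of 36 genes, 13.9%, 6.08 to 28.7%) were 533 to 979 bp from the TSS, all in intron 1, and the 9 promoter sites of the list, 55.6% of them downstream, held no TSS-centred site. Any promoter site was found at 22.2% of these genes. Col5a2 (835 bp wide), P4ha1, a subunit of prolyl 4-hydroxylase (729 bp), and Col1a2, a chain of collagen I (582 bp), were the widest, followed by Lamc1, the laminin γ1 chain (251 bp). Of these 5 sites 3 overlapped an island, and their median GC content was 45.0%. The 5 sites of the cytoskeletal list (5 of 31 genes, 16.1%, 7.09 to 32.6%) were 361 to 704 bp from the TSS. Any promoter site was found at 38.7% of the genes, and 35.7% of the 14 sites were downstream. The 5 were at Ccn1 (a matricellular protein), Pfn1 (profilin), Tpm1 (tropomyosin), Myh9 (non-muscle myosin) and Vim (vimentin). None of the sites of either list covered the TSS, nor did those of the Polycomb, immediate early, TGF-beta and Wnt, and translation factor lists.

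Of the 82 cytosolic ribosomal protein genes, 16 had a downstream site (19.5%, 12.4 to 29.4%) and 67.1% had any promoter site. The downstream share of their 65 promoter sites was 24.6% (15.8 to 36.3%), beside 27.5% of all. The median offset of the 16 sites was 230.5 bp, with a range of 161 to 520 bp. Exon 1 was short in these genes, with a median of 63.5 bp. Of the 16 centres, 12 were in intron 1, and 9 sites still spanned the splice site. Wide sites among them were at Rpl38 (718 bp), Rpl3 (669 bp) and Rpl19 (527 bp). All 16 overlapped an island. Of 68 translation factor genes 42.6% had any promoter site, and 18.2% of 33 promoter sites were downstream. The 6 downstream sites (8.82% of genes, 4.11 to 17.9%) were 177 to 369 bp from the TSS, with the widest at Eef2, the elongation factor that translocates the ribosome (715 bp, 271 bp past the splice site). Splicing factors had 12 downstream sites at 11 of 42 genes (26.2%, 15.3 to 41.1%). Of their 26 promoter sites 46.2% (28.8 to 64.5%) were downstream, and 52.4% of the genes had any promoter site. The widest were at Hnrnpa0 (1260 bp, on a single-exon transcript), Hnrnpa2b1 (806 bp), Hnrnpa3 (753 bp) and Hnrnph3 (700 bp). In 7 of the 11 with a spliced transcript the site spanned the splice site. Of 50 cell cycle and replication genes 26% had any promoter site, with 4 of 15 sites downstream (26.7%), and 3 had a downstream site (6%), namely Cdkn1b, an inhibitor of cyclin-dependent kinases, with 2 sites, Aurkb and Cdk1.

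Relative to translation, the downstream sites lay on both sides of the start codon. Of the 658 sites whose transcript is coding, 302 (45.9%, 42.1 to 49.7%) were centred before the start codon, 177 (26.9%) spanned it, and 125 (19.0%) were centred in coding sequence. TSS-centred sites spanned the start codon more often, in 41.7%, a difference of -14.8 points (-19.5 to -9.98). The classes are set by the offset from the TSS, so this difference is a description.

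The landmark depends on which TSS is annotated. The genes of the downstream sites had a median of 5 annotated TSSs, and the nearest was the 5′-most in 207 of the 872 (23.7%). It was the start of a protein-coding transcript in 598 cases, of a retained-intron transcript in 128, of a processed transcript in 86 and of a target of nonsense-mediated decay in 60. A further TSS of the same gene was within 1 kb downstream of the centre in 9.52% of downstream sites and in 47.4% of TSS-centred sites. This difference is partly set by the rule, since a later TSS nearer to the centre would have taken the site. In addition, 11 downstream sites had a nearer TSS of a non-coding gene on the same strand. All 90 sites of genes with a single annotated TSS overlapped an island.

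Genes with a downstream site were found on 20 of the 21 assembled nuclear chromosomes, with none on Y. They made up 0.422% of the protein-coding genes of chromosome X (4 of 948, of which Kdm6a is one) and 1.63% of those of chromosome 7. The highest share was 5.85% on chromosome 18. As a share of the sites within 1 kb of a coding TSS, the downstream sites varied less, from 21.3% on chromosome 5 to 35.3% on chromosome 16, and the 21.7% of chromosome X rested on 5 of 23 sites.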

How the data were processed

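ASH2L ChIP-seq was performed by the authors in 8 iMEF libraries. Reads were trimmed (Trim Galore), aligned with BWA to mm10 and filtered with SAMtools. Replicates were merged with Picard and narrow peaks were found by MACS2, and whether the peaks came from the merged files is not stated. Tool versions are not given in the sources used here, nor is how sites were combined over the samples. The deposited list gives a start and an end in bp for each site, with no other value, and depth is unknown.

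Starts were read as counted from 0, and positions are printed counted from 1. Of the listed sites, 16 were not on the 21 assembled nuclear chromosomes and were not classified. Gene models were those of GENCODE mouse release 21 (the authors used a later one), with the best supported transcript at each TSS, and bases those of GRCm38.p6. Islands were merged from windows, so their edges can reach past the CpG-rich stretch. Composition and motifs were read in 200-bp windows. Shares have Wilson, differences of shares Newcombe and medians exact order-statistic 95% intervals. No p-value was computed, and the functions were tested on simulated data.

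Members and lists were chosen with earlier results of these data known. Named were the 10 widest sites, the 8 that span a 5′ splice site and are centred nearest to it, the 6 genes with the most sites, the 3 sites on each side of each bound, the 5 longest exons 1 that hold a centre, and the sites at genes of the lists, with values for up to 4 per list, widest first. Values for Ebf1, Twist1 and Runx2 were added after they were seen. Some items that these rules pick are not reported here. Alternatives covered the bounds, the transcript set, the island definition and the width of sites. Software was matplotlib 3.10.9, SciPy 1.17.1, pandas 2.3.3, NumPy 2.4.6 and Python 3.11.15.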

Additional observations from a re-analysis of the deposited data

How the results depend on the processing

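Of 66 alternative values, 36 left the 95% interval of the value reported, 0 reversed, and 30 did neither. A reversal was defined only for the distance to the splice site, which has a sign. Differences between classes were not recomputed. Among the 30 are the alternatives to the number of downstream sites, which have no interval and stayed within 1.5 times 872. Lower bounds of 100 and 200 bp gave 36.9% and 25.3% of centres in exon 1 and median distances past the 5′ splice site of 83 and 196 bp. With transcripts tagged basic, 51.4% of sites spanned the splice site (median distance 104 bp), 93.7% overlapped an island, 82.2% were centred in the island of the TSS, 431 bp from its downstream edge, and 20.5% had another site at the TSS. With protein-coding transcripts the spanning share was 49.2% and the distance 119 bp. With the 5′-most TSS these values were 34.6% in exon 1, 51.6% spanning, 98 bp, 96.2% overlapping, 83.0% in the island of the TSS, 463 bp to the edge and 16.1% with another site. With RefSeq curated transcripts they were 35.3%, 52.6%, 87 bp, 94.8%, 84.8%, 436 bp and 19.8%, in the same order. In genes with 1 annotated TSS, 54.4% were in exon 1, the distance was 22 bp, with an interval that includes 0, 100% overlapped an island, 82.2% were centred in that of the TSS and the edge was 528 bp ahead. Stricter islands gave 85.9% overlapping and 523 bp to the edge. Without sites of the minimum width, 91.1% overlapped an island and the median width was 360 bp, and merging sites with gaps under 1 kb gave 391 bp. The 5′-most set shared 623 members with the main set (71.4% of it) and the RefSeq set 712 (81.7%). The RefSeq set, the values of the 5′-most set other than its count, and the minimum-width values for the exon 1 share and the distance to the splice site were chosen after seeing the data.

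No paired analysis was possible because the list has no column per sample, and replicates could not be left out. The shortest distances are below the length of the sheared fragments behind a site, so the place of a single centre is less exact than its coordinate.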
